A study of Mus with 6 samples.

Results

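Macrophages are phagocytes that arise from blood monocytes and from embryonic precursors, and in pancreatic tumors they are among the most frequent immune cells. They depend on colony-stimulating factor 1, made by tumor and stromal cells, which signals through a receptor tyrosine kinase on the macrophage. Their activation is often described along an axis from a classical, inflammatory state, in which inducible nitric oxide synthase turns arginine into nitric oxide, to an alternative state with arginase and the mannose and scavenger receptors, although tumor macrophages commonly mix features of both.

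Described here are 10 genes of macrophage identity and polarization, chosen by Ensembl ID: Adgre1, Csf1r, Cd68, Itgam, Cd14, Csf1, Mrc1, Cd163, Arg1 and Nos2. All 10 were among the 15646 genes in the table, and all 10 passed the filter on low counts, as did 14348 genes in total. RNA-seq was made from orthotopic tumors, that is, tumors grown in the pancreas itself, of the mouse pancreatic ductal adenocarcinoma line KPC1199. The hosts were genetically obese mice (ob/ob, which lack functional leptin) with 3 libraries, or lean mice (WT) with 3 libraries, and every host carried the same tumor line. Titles starting with OB were read as obese and those starting with ND as lean; libraries are called by the number in the title, obese 1, 3 and 4 and lean 1, 2 and 3. The labels give no age, sex or strain background of the hosts, and do not say whether each library came from a separate mouse, so p-values rest on the differences among these libraries, part of which may be technical.

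The libraries held 7122533 to 8521244 counts. Obese 3 stood apart from the other 5 libraries on the second principal component, at -37.7 against -6.45 to 17.5, so values without it are given beside the results. Levels are in CPM, counts scaled to a common library size with edgeR's TMM factors, and depend on transcript length, so they are compared between libraries and never between genes. A gene is called changed at an adjusted p under 0.05 (edgeR quasi-likelihood test, Benjamini-Hochberg over all genes tested), and the error given with a log2 fold change is its standard error (SE). Each of the 10 genes had at least 31 counts in every library, so all were detected in all tumors. Symbols could be attached to these 10 genes alone, so markers of neutrophils, dendritic cells and other cells that share some of these genes were not looked up, and their part in the results was not tested. In RNA from whole tumors, a rise or fall in the number of macrophages and one in the RNA per macrophage cannot be told apart.

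Of the 10 genes, 3 rose in obese hosts (Mrc1, Adgre1 and Cd163), 0 fell and 7 did not pass the test; over all genes tested, 10.3% rose and 10.6% fell, 20.8% together. The count depended on the libraries: Mrc1 alone was called without obese 1, lean 1, lean 2 or lean 3. It was joined by Adgre1 without obese 4, and 4 of the 10 rose without obese 3, where 9.97% of all genes tested rose. Calls over all genes, in either direction, varied as well: 2991 of 14348 with all 6 libraries and 3066 of 14720 without obese 3. They were fewer in the other fits, from 1179 of 14748 without lean 2 to 2624 of 14704 without lean 1. For these other fits, the share of all genes that rose was not taken separately. At a looser adjusted p under 0.1 with all 6 libraries, Arg1 and Itgam joined the 3 genes, so that 5 of 10 were higher, against 15.4% of all genes tested. The estimated log2 fold change was above 0 for 8 of the genes and below 0 for Cd14 and Nos2. Over all genes tested, it was above 0 for 7308 of 14348. The median over the 10 genes was 0.47, against 0.01 over all genes tested. The libraries of the hosts did not overlap for Mrc1, Cd163 and Itgam, each higher in every obese library, and this pattern was seen in 20.3% of all genes tested. The receptors associated with alternative activation thus both passed, against 1 of 5 identity genes, 0 of 2 arginine enzymes and not the growth factor; whether these groups of genes differ was not tested. With so few genes in each group, the counts describe these genes only.

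**Figure D1:**
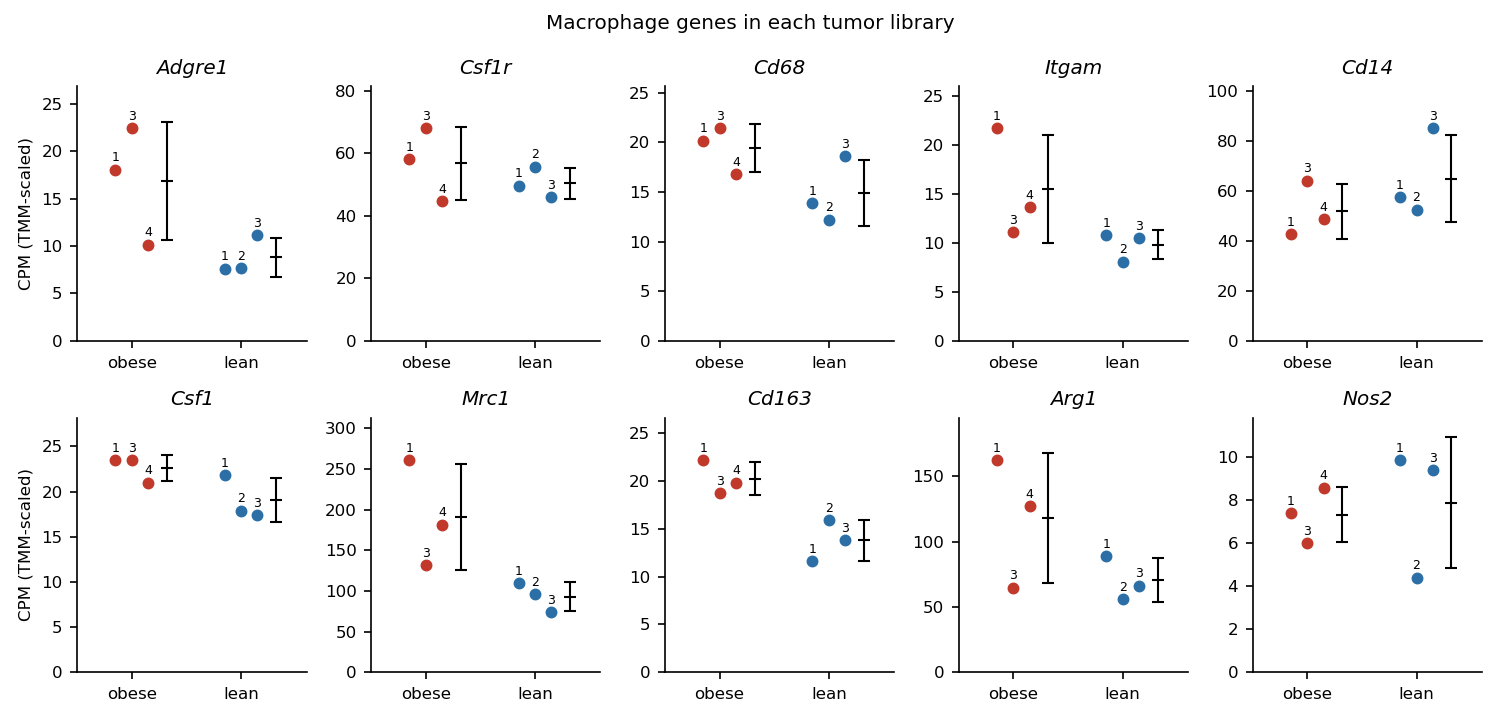
Level of each of the 10 genes (y axis, TMM-scaled CPM, starting at 0) in the obese (red) and lean (blue) tumor libraries. Points are libraries with the number of their title, and bars are the mean and SD of 3 libraries; all obese points lie above all lean points for Mrc1, Cd163 and Itgam, and the hosts overlap for the other 7 genes.

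The identity genes were described first. Adgre1 (ENSMUSG00000004730.15; GRCm38.p6 chromosome 17, 57358581 to 57483529) encodes the adhesion-family receptor by which mouse macrophages are usually stained. It had 18.1, 22.4 and 10.1 CPM in obese 1, 3 and 4, against 7.60, 7.67 and 11.1 CPM in lean 1, 2 and 3. Obese 1 and 3 were above every lean library, whereas obese 4 was below lean 3, so the hosts overlapped. The mean was 16.9 ± 6.21 CPM in obese and 8.80 ± 2.02 CPM in lean hosts (SD, n = 3 each), a 1.91-fold rise (log2 0.94, SE 0.29, edgeR adjusted p = 0.0432). The call held without obese 4 (log2 1.19, edgeR adjusted p = 0.0146) and was lost when any of the other 5 libraries was left out, at log2 fold changes of 0.68 without obese 3 (edgeR adjusted p = 0.114) to 1.14 without lean 3 (edgeR adjusted p = 0.0567). It was also lost with limma-voom (log2 0.88, adjusted p = 0.0701).

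Csf1r (ENSMUSG00000024621.16; GRCm38.p6 chromosome 18, 61105572 to 61131139) encodes the receptor for colony-stimulating factor 1, on which most tissue macrophages depend for survival. It had 58.0, 67.9 and 44.6 CPM in obese 1, 3 and 4, against 49.6, 55.7 and 45.9 CPM in lean 1, 2 and 3. The lowest of all 6 libraries was obese 4 and the highest obese 3, so the obese libraries enclosed the lean ones. The means of 56.9 ± 11.7 CPM in obese and 50.4 ± 4.91 CPM in lean hosts (SD, n = 3 each) gave a log2 difference of 0.17 (SE 0.16; edgeR adjusted p = 0.453). Its 95% interval, 0.89- to 1.43-fold, takes in no change. Without obese 3 the estimate was 0.03.

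Cd68 (ENSMUSG00000018774.13; GRCm38.p6 chromosome 11, 69664213 to 69666170) encodes a glycoprotein of lysosomal and endosomal membranes that is abundant in phagocytes. It had 20.2, 21.4 and 16.8 CPM in obese 1, 3 and 4, against 13.9, 12.2 and 18.6 CPM in lean 1, 2 and 3. All 3 obese libraries were above the lean mean, but lean 3 was above obese 4. The log2 fold change of 0.38 (SE 0.20) did not pass the test (edgeR adjusted p = 0.193), with a 95% interval of 0.96- to 1.76-fold. Without obese 3 the estimate was 0.31.

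Itgam (ENSMUSG00000030786.18; GRCm38.p6 chromosome 7, 128062640 to 128118491) encodes the integrin alpha M chain, CD11b, which monocytes, neutrophils and natural killer cells carry as well as macrophages. It had 21.7, 11.1 and 13.6 CPM in obese 1, 3 and 4, against 10.8, 8.09 and 10.5 CPM in lean 1, 2 and 3. The hosts did not overlap, although obese 3 was only just above lean 1, with 91 counts in each of these libraries, and obese 1 stood well above the rest. The log2 fold change of 0.66 (SE 0.26; 95% interval 1.06- to 2.35-fold) did not pass the test (edgeR adjusted p = 0.0965). Without obese 3 it was 0.85 and passed (edgeR adjusted p = 0.0333), and without obese 1 it was 0.33 (edgeR adjusted p = 0.395).

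Cd14 (ENSMUSG00000051439.7; GRCm38.p6 chromosome 18, 36725064 to 36726815) encodes the co-receptor that hands bacterial lipopolysaccharide to Toll-like receptor 4. It had 42.7, 64.0 and 48.5 CPM in obese 1, 3 and 4, against 57.3, 52.4 and 84.9 CPM in lean 1, 2 and 3. All 3 obese libraries were below the lean mean of 64.9 ± 17.5 CPM (SD, n = 3), but obese 3 was above lean 1 and 2. The obese mean was 51.7 ± 11.0 CPM (SD, n = 3), and the log2 fold change of -0.33 (SE 0.20; 95% interval 0.59- to 1.08-fold) did not pass the test (edgeR adjusted p = 0.257). Much of it lay in lean 3: without that library the log2 fold change was -0.09. Without obese 3 it was -0.50 (edgeR adjusted p = 0.0824).

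The growth factor was measured beside its receptor. Csf1 (ENSMUSG00000014599.10; GRCm38.p6 chromosome 3, 107741048 to 107760469) encodes colony-stimulating factor 1, which drives the growth and survival of macrophages. It had 23.4, 23.5 and 21.0 CPM in obese 1, 3 and 4, against 21.8, 17.9 and 17.4 CPM in lean 1, 2 and 3. The obese libraries lay close together, and lean 1 was above obese 4. The log2 fold change of 0.25 (SE 0.16) did not pass the test (edgeR adjusted p = 0.289), with a 95% interval of 0.93- to 1.52-fold, and was 0.23 without obese 3. Neither ligand nor receptor was thus called, and the intervals of both leave room for a rise of less than 1.52-fold and for a small fall.

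The receptors associated with alternative activation both rose. Mrc1 (ENSMUSG00000026712.3; GRCm38.p6 chromosome 2, 14229414 to 14332023) encodes the macrophage mannose receptor, CD206, an endocytic lectin that is also made by some endothelial cells. It had 261.0, 131.9 and 181.6 CPM in obese 1, 3 and 4, against 109.7, 95.9 and 74.1 CPM in lean 1, 2 and 3. Every obese library was above every lean one, and obese 1 was the highest and obese 3 the lowest of the obese libraries. The mean was 191.5 ± 65.1 CPM in obese and 93.2 ± 17.9 CPM in lean hosts (SD, n = 3 each), a 2.05-fold rise with a 95% interval of 1.47- to 2.88-fold (log2 1.04, SE 0.22, edgeR adjusted p = 0.0104). A higher log2 fold change was fitted for 4.54% of all genes tested. This was the gene of the 10 whose call held with each library left out in turn, at log2 fold changes of 0.75 without obese 1 to 1.25 without obese 3 (edgeR adjusted p = 0.00107 to 0.049).

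Cd163 (ENSMUSG00000008845.9; GRCm38.p6 chromosome 6, 124304636 to 124330529) encodes the scavenger receptor that takes up complexes of haemoglobin and haptoglobin and is largely restricted to monocytes and macrophages. It had 22.2, 18.7 and 19.8 CPM in obese 1, 3 and 4, against 11.6, 15.9 and 13.8 CPM in lean 1, 2 and 3. The obese libraries lay close together and above all lean libraries. The mean was 20.2 ± 1.76 CPM in obese and 13.8 ± 2.14 CPM in lean hosts (SD, n = 3 each), a 1.47-fold rise with a 95% interval of 1.12- to 1.93-fold (log2 0.56, SE 0.18, edgeR adjusted p = 0.0482). The call was close to the threshold: it held without obese 3 (log2 0.62, edgeR adjusted p = 0.0481) and was lost without any of the other 5 libraries (log2 0.45 to 0.67, edgeR adjusted p = 0.0628 to 0.151). It was also lost with DESeq2 (log2 0.55, adjusted p = 0.0681) and with the replicate number as a block (log2 0.69, edgeR adjusted p = 0.0663). In the blocked fit, obese 4 and lean 2 have no like-numbered partner and add nothing to the host difference.

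**Figure D2:**
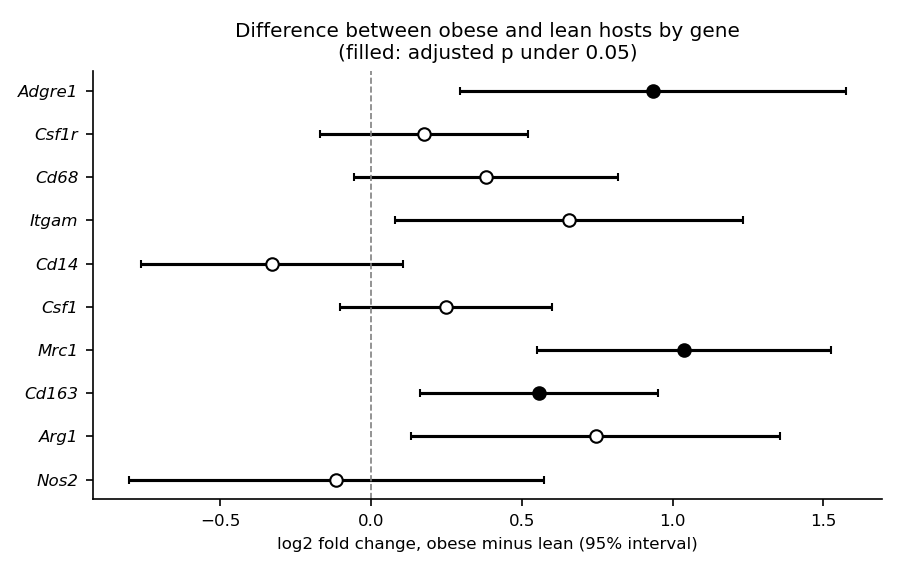
Log2 fold change of each gene, obese minus lean (x axis), with its 95% interval from the edgeR fit; filled points have an adjusted p under 0.05. Mrc1, Adgre1 and Cd163 are filled, the intervals of Itgam and Arg1 also lie above 0 before adjustment over all genes, and those of the other 5 genes include 0.

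The enzymes that compete for arginine did not pass the test. Arg1 (ENSMUSG00000019987.9; GRCm38.p6 chromosome 10, 24915207 to 24927470) encodes the cytosolic arginase, which splits arginine into ornithine and urea; in mouse tumors it is made by macrophages and by other myeloid cells. It had 162.3, 64.7 and 127.1 CPM in obese 1, 3 and 4, against 88.8, 55.8 and 66.3 CPM in lean 1, 2 and 3. Obese 1 and 4 were above every lean library, whereas obese 3 was below lean 1 and lean 3. The mean was 118.0 ± 49.4 CPM in obese and 70.3 ± 16.8 CPM in lean hosts (SD, n = 3 each), which is 0.75 on the log2 scale (SE 0.28; 95% interval 1.10- to 2.56-fold; edgeR adjusted p = 0.079). The call turned on obese 3: without it the log2 fold change was 1.04 and passed (edgeR adjusted p = 0.00286). Without obese 1 it was 0.45 (edgeR adjusted p = 0.29). With all 6 libraries, the adjusted p was 0.218 with DESeq2, 0.215 with a robust edgeR fit and 0.123 with limma-voom.

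Nos2 (ENSMUSG00000020826.9; GRCm38.p6 chromosome 11, 78920787 to 78960226) encodes inducible nitric oxide synthase, the classical-activation enzyme, which epithelial cells and neutrophils can also make. It had 7.39, 5.99 and 8.57 CPM in obese 1, 3 and 4, against 9.85, 4.40 and 9.39 CPM in lean 1, 2 and 3. Lean 2 was the lowest and lean 1 the highest of the 6, so the lean libraries enclosed the obese ones. Only 31 to 83 counts stood behind each value. The log2 fold change of -0.11 (SE 0.31, edgeR adjusted p = 0.823) had a 95% interval of 0.57- to 1.49-fold, so a change of moderate size in either direction was not detectable at this depth and spread. The estimate was above 0 without obese 3, lean 1 or lean 3, and none of these fits called the gene.

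The obese tumors did not share 1 order over the genes. Among the obese libraries, obese 1 was highest for Mrc1, Cd163, Arg1 and Itgam, and obese 3 was highest for Adgre1, Csf1r, Cd68, Cd14 and, by a small margin, Csf1. Obese 3 was also the lowest for Mrc1, Cd163, Arg1, Itgam and Nos2, and obese 4 was the lowest for Adgre1, Csf1r, Cd68 and Csf1. Leaving out obese 3 therefore moved the calls in both directions: Arg1 and Itgam were gained, Adgre1 was lost, and Mrc1 and Cd163 were kept. That made 4 of 10 genes higher, against 9.97% of all genes tested in that fit. Among the lean libraries, lean 2 was the lowest for Cd68, Itgam, Cd14, Arg1 and Nos2 and the highest for Csf1r and Cd163. This description of single libraries was made after their values were seen.

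**Figure D3:**
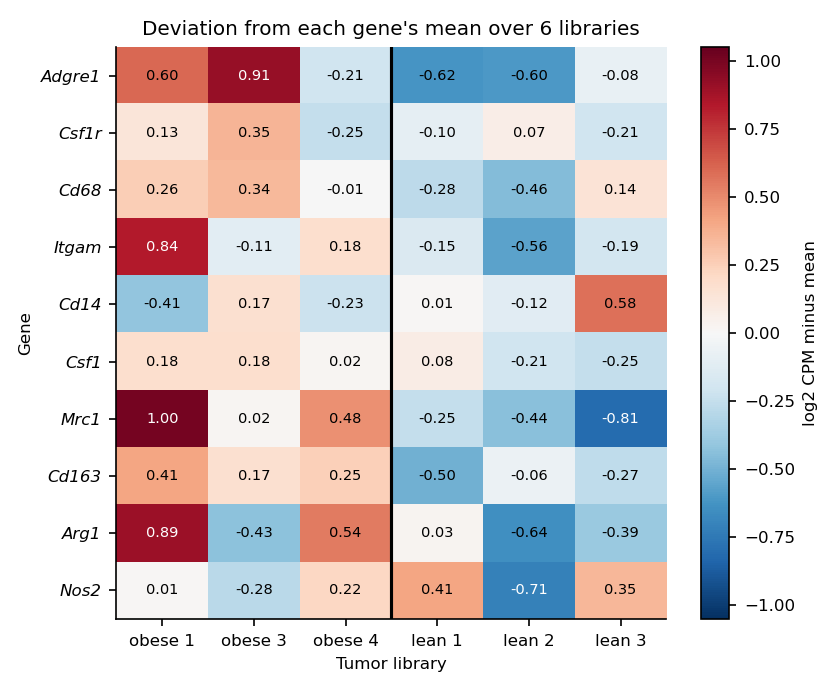
Log2 CPM of each gene (rows) in each library (columns, obese left of the line and lean right of it) minus the gene's mean over the 6 libraries; red is above and blue below the mean. Obese 1 is most above the mean for Mrc1, followed by Arg1 (0.89) and Itgam (0.84), and obese 3 for Adgre1 (0.91).

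The genes differed in how evenly they were expressed among libraries of a host. Arg1 varied most among the obese libraries, with the highest 2.51 times the lowest, and Adgre1 differed 2.21-fold, with 183 counts in obese 3 (95% Poisson interval 157 to 212) against 84 in obese 4 (67.0 to 104). Csf1 and Cd163 were the most even there, at 1.12 and 1.18 times. In lean hosts, Nos2 varied most, at 2.24 times. The SD of log2 CPM within a host was 0.36 in the median of the 10 genes and 0.22 in the median of all genes tested. It was highest for Arg1, at 0.54, and lowest for Csf1, at 0.14, a value close to the 0.11 that counting error gives for Csf1. The Poisson intervals cover counting error only.

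**Figure D4:**
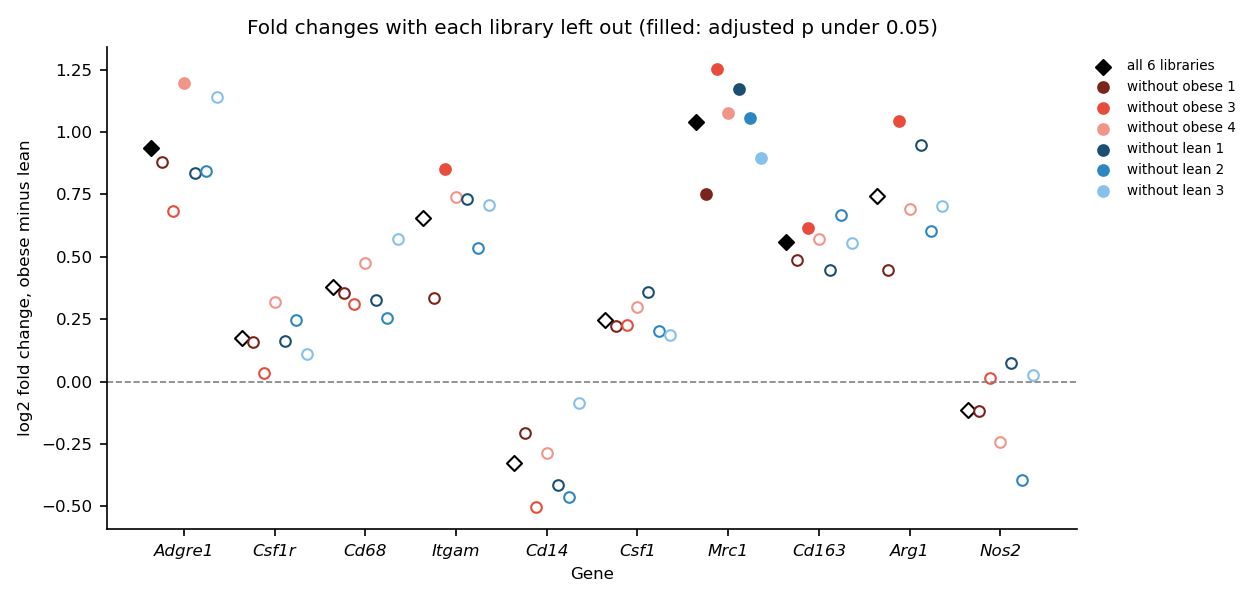
Log2 fold change, obese minus lean (y axis), of each gene with all 6 libraries (diamond) and with 1 library left out (circles, red shades for obese and blue shades for lean); filled symbols have an adjusted p under 0.05. The 7 symbols of Mrc1 are all filled, from 0.75 to 1.25, whereas Nos2 lies on both sides of 0.

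Ratios of gene pairs within a library do not depend on how libraries are scaled, and they were compared as descriptions, without a test. Cd14 over Cd68 was the pair, of 7 compared, whose libraries did not overlap: the log2 ratio of counts was 1.08, 1.58 and 1.53 in obese 1, 3 and 4, against 2.04, 2.09 and 2.18 in lean 1, 2 and 3. The lean libraries were nearly equal, with a mean of 2.11 ± 0.07, whereas the obese mean was 1.39 ± 0.27 (SD, n = 3 each), a difference of -0.71. It was -0.80 without obese 3 and -0.55 without obese 1. Neither gene was called on its own. Of the 14348 single genes tested, 2907 had every obese library higher and 2874 every obese library lower. How often ratios of other gene pairs separate the hosts was not examined.

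Arg1 over Nos2, the ratio of the arginine enzymes, was 4.45, 3.42 and 3.88 on the log2 scale in obese 1, 3 and 4, against 3.16, 3.64 and 2.81 in lean 1, 2 and 3. Obese 1 and 4 were above all lean libraries and obese 3 was below lean 2, so the hosts overlapped. The means were 3.92 ± 0.51 in obese and 3.21 ± 0.42 in lean hosts (SD, n = 3 each), a difference of 0.71. It was 0.96 without obese 3, the obese library that made the overlap, and 0.44 without obese 1.

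Set against Adgre1, the polarization genes gave ratios that depended on single libraries. Among these were obese 3 and obese 4, with the highest and the lowest Adgre1 of the obese libraries. The log2 ratio of Mrc1 over Adgre1 was 3.85, 2.56 and 4.16 in obese 1, 3 and 4, against 3.84, 3.63 and 2.73 in lean 1, 2 and 3. With all 6 libraries the hosts overlapped, and the difference between the means, 0.12, was smaller than the SD of 0.85 in obese and 0.59 in lean hosts. Obese 3 alone among the obese libraries lay below lean ones, and obese 1 was only just above lean 1. Without obese 3 the difference was 0.60. It was -0.22 without lean 3, -0.20 without obese 4 and -0.04 without obese 1, so its direction was not settled by these libraries.

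Arg1 over Adgre1 differed by -0.21, with SDs of 1.11 in obese and 0.50 in lean hosts, and its sign changed as well: it was 0.42 without obese 3 and 0.07 without lean 1. Cd163 over Adgre1 differed by -0.32 (SD 0.61 in obese and 0.37 in lean hosts), by -0.03 without obese 3 and by -0.63 without obese 4. Nos2 over Adgre1 differed by -0.92 (SD 0.83 in obese and 0.58 in lean hosts). The difference was -0.54 without obese 3 and -1.37 without obese 4, and stayed below 0 with each library left out. The libraries of the hosts overlapped in each of these 3 ratios. Csf1 over Csf1r differed by 0.10, with SDs of 0.22 in obese and 0.23 in lean hosts, and by 0.21 without obese 3, -0.01 without obese 4 and -0.02 without lean 2.

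**Figure D5:**
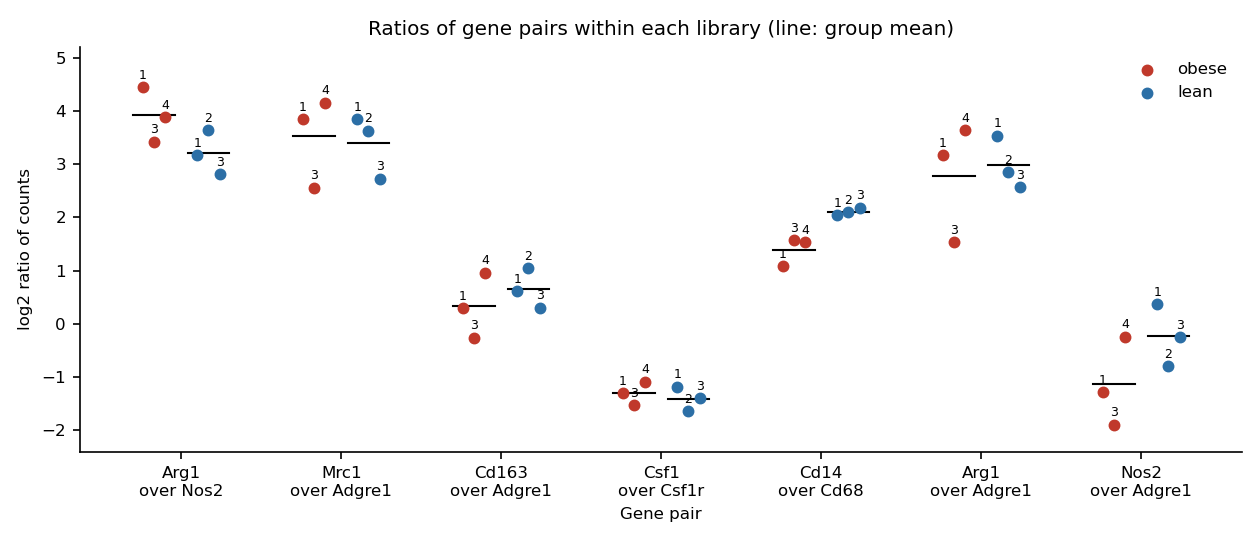
Log2 ratio of the counts of 7 gene pairs (x axis) within each obese (red) and lean (blue) library, with the library's number; lines are means of 3 libraries. Heights depend on the transcript lengths of both genes as well as on their levels, so they are compared within a pair only. The hosts do not overlap for Cd14 over Cd68.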

How the data were processed

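Total RNA from pancreatic tumor tissue was extracted with QIAzol, depleted of ribosomal RNA and sequenced, per the labels' protocols. The authors deposited raw counts per gene for 6 libraries. The build GRCm38 and the tools CASAVA, STAR and Subread are named in the submitters' processing notes. Their versions and settings, and whether counting used strand, are stated in none of the sources used here. Whether reads of genes that overlap a member were counted to it is therefore not known. RefSeq (GRCm38.p6) lists genes whose spans overlap those of Adgre1, Csf1r, Mrc1, Cd163, Arg1 and Csf1, and overlap of exons was not examined. The lowest sum over the libraries was 11 counts, so scarcer genes are not in the table. Member symbols come with the list of IDs. The RefSeq table carries 0 Ensembl IDs among its 49997 rows, so no other gene was named, and the planned marker lists and most-alike genes were not looked up. RefSeq positions of the 10 members were matched by symbol.

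From the counts, edgeR 4.0.16 (R 4.3.3) was run on all genes: default expression filter (minimum count 10, minimum total 15), TMM factors, quasi-likelihood F test, two-sided, no covariates, 3 obese against 3 lean libraries. CPM use TMM-scaled library sizes. Principal components and log2 CPM used a prior count of 2, and ratios of gene pairs added 0.5 counts to both genes. The 95% intervals of fold changes use the test's SE and degrees of freedom. Alternatives were other scalings and filters, limma-voom with limma 3.58.1, DESeq2 1.42.0, robust dispersions, a replicate block, and fits with each library dropped. All 10 members are named whatever their values. The members and lists were chosen with earlier results of these data known. The fits were also run on simulated counts drawn with the dispersions of these libraries. That run checks the code and does not bear on the results for the 10 genes.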

Additional observations from a re-analysis of the deposited data

How the results depend on the processing

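Across other scalings (RLE, upper quartile, total counts only), filters (none, or 1 CPM reached in 3 libraries), DESeq2, limma-voom and a robust edgeR fit, every gene of the 10 kept its direction. The calls kept their side of the threshold apart from Adgre1 with limma-voom (log2 0.88, adjusted p = 0.0701) and Cd163 with DESeq2 (log2 0.55, adjusted p = 0.0681); over these alternatives the adjusted p was 0.0204 to 0.0701 for Adgre1, 0.0347 to 0.0681 for Cd163 and 3.54e-05 to 0.0392 for Mrc1. At an adjusted p under 0.1, 5 genes were higher (15.4% of all genes tested), 2 of them identity genes and 1 an arginine enzyme. Leaving out 1 library gave 1179 of 14748 genes (without lean 2) to 3066 of 14720 genes (without obese 3) called in either direction. Of the 10 members, 1 to 4 were higher: 0 to 1 identity genes, 1 to 2 receptors and 0 to 1 arginine enzymes. The share of all genes that was higher was 9.97% without obese 3 and was not taken for the other fits with 1 library left out. Log2 fold changes then ranged from 0.68 to 1.19 for Adgre1, 0.45 to 0.67 for Cd163, 0.45 to 1.04 for Arg1, 0.33 to 0.85 for Itgam and -0.40 to 0.075 for Nos2, which was above 0 without obese 3 (0.01), lean 3 (0.03) or lean 1 (0.075); the cause was not tested. With 1 count added, each of the 7 ratios of gene pairs moved by less than 0.01. With a library left out, the differences of Mrc1 over Adgre1 (-0.22 to 0.60), Arg1 over Adgre1 (-0.64 to 0.42) and Csf1 over Csf1r (-0.02 to 0.21) changed sign, and the other 4 kept theirs.

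The hosts share the numbers 1 and 3 alone. The deviations of libraries from their group means correlated at 0.090 for number 1 and at 0.074 for number 3. Between obese and lean libraries of unlike number, the correlations ran from -0.131 to 0.066. Both values for shared numbers lay above this range, that for number 3 by a small margin, and all were small. Whether like numbers mark paired samples was not tested, and these values do not show it. A fit with the replicate block called 2087 genes in all, Cd163 was not (log2 0.69, edgeR adjusted p = 0.0663), and Mrc1 and Adgre1 were (log2 1.04 and 1.12).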
